A study of Mus musculus with 9 samples.

Results

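Pluripotency factors were followed through 8 genes chosen by name: Pou5f1, Nanog, Sox2, Zfp42, Utf1, Foxd3, Tcl1 and Tbx3. The cells were F9, an established line of mouse embryonal carcinoma, the stem cells of a germ cell tumour. All 8 were measured, by 10 of the 12422 probe sets that are not controls, out of 8251 genes with a single symbol. A probe set is the group of short oligonucleotides that reads 1 transcript on the array. Pou5f1 and Nanog each had 2 probe sets and the others 1. Cultures had been treated for 24 h with ethanol, the vehicle, with 0.5 µM retinoic acid (RA) or with 0.07 µM trichostatin A (TSA), an inhibitor of histone deacetylases, and each of these 3 groups had 3 arrays. No genetic change is named for any group. Whether the 3 arrays of a group came from separate cultures is not stated, so the p-values rest on a spread that may be purely technical.

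Undifferentiated embryonal carcinoma and embryonic stem cells are held in that state by a small circuit of transcription factors. Pou5f1 (Oct4), a POU-domain factor, and Sox2, an HMG-box factor, bind neighbouring DNA elements as a pair, and with the homeodomain factor Nanog they occupy enhancers of one another and of targets such as Utf1 and Zfp42. Retinoic acid, acting through nuclear receptors, is a classical inducer of differentiation in these cells, and in F9 cells it leads toward endoderm. Tbx3 is a member of the circuit that is also active in early endoderm.

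The stretches of promoter below show where DNA elements of these and other factor families lie in members that fell in RA past the test and in the 3 core factors, which did not pass it. They are from RefSeq on the GRCm38.p6 build, are written 5′ to 3′ on the strand of the gene and end before the annotated transcript start. Of the 8 genes, 7 had an entry in the RefSeq promoter table, with 9 windows in all, and Tbx3 had none. Capitals mark matches, on either strand, to ATGCAAA (the core of the octamer bound by POU factors), ACAATG (a core for Sox factors), GGGCGG (the GC box of Sp1-type factors), AGGTCA (a half-site of nuclear receptors), TGTTTA (a forkhead core), AGGTGT (a T-box half-site) or TATAAA (the TATA box). The first 4 are the whole 250 bases before the start of the genes that fell past the test in RA.

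Zfp42, chr8:43307010-43307259, minus strand: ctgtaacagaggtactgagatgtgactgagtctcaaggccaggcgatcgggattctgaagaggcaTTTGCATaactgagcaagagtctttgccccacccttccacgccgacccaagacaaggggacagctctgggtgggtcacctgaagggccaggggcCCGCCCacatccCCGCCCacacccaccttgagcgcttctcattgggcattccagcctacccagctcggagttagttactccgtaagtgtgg
Tcl1, chr12:105222738-105222987, minus strand: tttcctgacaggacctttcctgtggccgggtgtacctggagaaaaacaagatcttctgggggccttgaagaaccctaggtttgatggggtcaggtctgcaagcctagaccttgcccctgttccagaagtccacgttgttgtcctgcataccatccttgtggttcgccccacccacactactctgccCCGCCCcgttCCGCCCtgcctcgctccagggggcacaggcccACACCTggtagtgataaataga
Utf1, chr7:139943606-139943855, plus strand: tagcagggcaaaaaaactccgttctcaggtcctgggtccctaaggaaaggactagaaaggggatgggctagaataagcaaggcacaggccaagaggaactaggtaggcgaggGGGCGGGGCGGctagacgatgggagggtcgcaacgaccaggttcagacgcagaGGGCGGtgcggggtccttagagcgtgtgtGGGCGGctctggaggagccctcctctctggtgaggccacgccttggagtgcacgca
Foxd3, chr4:99656049-99656298, plus strand: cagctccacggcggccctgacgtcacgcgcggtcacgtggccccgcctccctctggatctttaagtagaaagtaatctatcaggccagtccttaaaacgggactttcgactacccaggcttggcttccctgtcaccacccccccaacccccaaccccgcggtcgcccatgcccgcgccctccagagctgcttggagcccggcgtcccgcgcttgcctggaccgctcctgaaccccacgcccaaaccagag

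The next 3 are 60-base stretches of the core factors, around the octamer core of Nanog and Sox2 and the nuclear receptor half-site of Pou5f1. For Pou5f1 and Nanog they come from the first of the 2 windows listed.

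Nanog, chr6:122707387-122707446, plus strand: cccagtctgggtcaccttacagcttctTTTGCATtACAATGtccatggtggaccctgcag
Sox2, chr3:34649869-34649928, plus strand: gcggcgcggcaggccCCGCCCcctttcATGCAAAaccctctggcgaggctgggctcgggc
Pou5f1, chr17:35505972-35506031, plus strand: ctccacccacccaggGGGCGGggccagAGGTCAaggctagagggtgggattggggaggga

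In windows of 250 bases before to 50 after the start, an octamer core was present in Zfp42, Nanog and Sox2, 3 of the 7 genes. By window it was in 4 of 9, against 4.63% of 32851 windows of that length in the table. The 2 windows of Nanog overlap and hold the same octamer core and Sox core. In Nanog the octamer core and the Sox core stand with 1 base between them, with their first bases at -75 and -67 from the start. The Sox core was in Pou5f1 (its second window) and Nanog, 3 of the 9 windows, and in 12.6% of all windows. A GC box was in 5 of the 7 genes, Pou5f1, Sox2, Zfp42, Utf1 and Tcl1. By window it was in 5 of 9, and in 35.7% of all windows, and 2 of the 4 GC boxes of Utf1 share a base. The half-site of nuclear receptors was in Pou5f1, Nanog and Sox2, 3 of the 9 windows, and in 16.3% of all windows. The T-box half-site was in Pou5f1 and Tcl1, 2 of the 9 windows, and in 13.7% of all windows. The forkhead core (13.4% of all windows) and the TATA box (13.6%) were in none of the 9 windows. Foxd3 held no match to any of the 7 words. These matches describe the letters of these windows only.

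Every value below is a ratio: the signal of a probe set on 1 array over its mean on the 3 vehicle arrays, as deposited by the authors. The ratios do not show how bright a probe set was in vehicle cells, so the presence of the factors themselves, or of markers of other cells, could not be checked by level. Levels are therefore not compared between genes. Over all probe sets the median ratio was between 0.975 and 1.02 in vehicle, between 0.862 and 0.915 in RA and between 0.821 and 0.878 in TSA. The log2 change of the median probe set was -0.12 in RA and -0.17 in TSA, and it was 0.035 and 0.029 after the arrays were centred on their medians; the changes below are not corrected for it. Signal of the 18S rRNA controls stood apart on vehicle replicate 3 (2.4 times the vehicle mean) and RA replicate 3 (0.961), with vehicle replicate 1 next at 0.538 and the remaining 6 arrays at or below 0.073. In RNA of whole cultures, fewer cells that express a gene and less RNA per cell cannot be told apart.

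After 24 h of RA, Zfp42, Utf1, Foxd3 and Tcl1 fell to between 0.237 and 0.31 of the vehicle mean, and Tbx3 rose to 2.9 times it. The core factors Pou5f1, Nanog and Sox2 had mean ratios of 0.444 to 0.634 and did not pass the test. After TSA, Foxd3 fell to 0.0407 and Utf1 to 0.369, while Zfp42, Tcl1, Sox2 and Tbx3 had means of 0.818 to 0.947 and did not pass. Pou5f1 and Nanog, at 0.446 to 0.749 in TSA, did not pass either. Changes were tested with limma on log2(ratio + 0.05), with Benjamini-Hochberg adjustment over all 12422 probe sets, and a change with an adjusted p under 0.05 is called. On that scale the changes of low values, such as those of Foxd3, are understated.

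**Figure D1:**
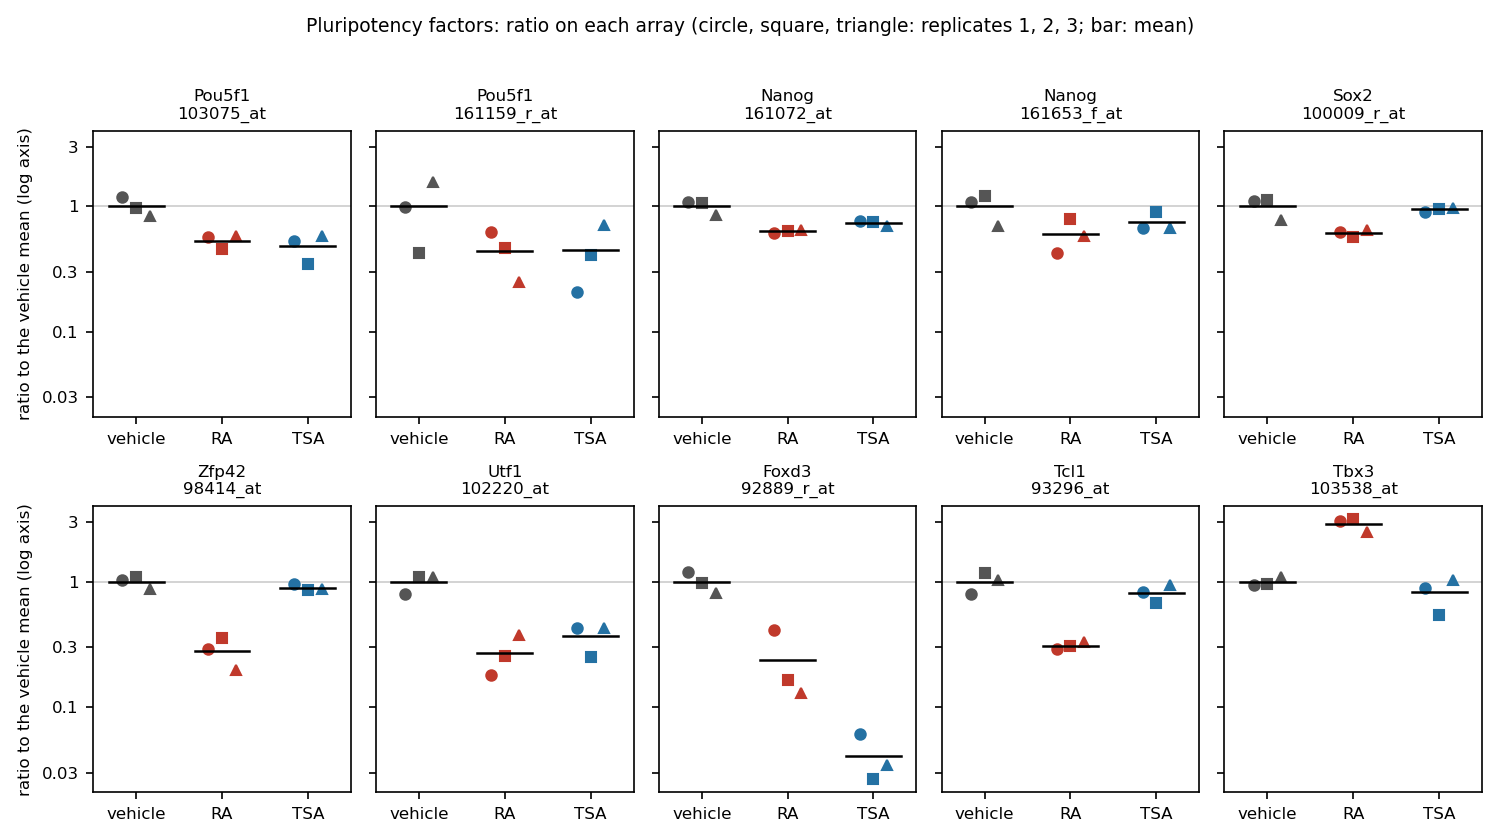
Ratio to the vehicle mean (log axis) of each of the 10 probe sets on the 3 vehicle, 3 RA and 3 TSA arrays; circles, squares and triangles are replicates 1, 2 and 3 and bars are group means. The RA arrays of Zfp42, Utf1, Foxd3 and Tcl1 lie below all their vehicle arrays and those of Tbx3 above, while in TSA Foxd3 lies at 0.0265 to 0.061.

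Among the core factors, Pou5f1 was measured by its first probe set at 1.18, 0.974 and 0.846 on vehicle replicates 1, 2 and 3. On the RA arrays it was at 0.565, 0.456 and 0.581, and on the TSA arrays at 0.528, 0.346 and 0.585. All 6 treated arrays lay below the 3 vehicle arrays, and the RA and TSA arrays overlapped. The log2 change was -0.84 ± 0.238 (SE, n = 3 against 3) in RA, with an adjusted p of 0.158 (limma), and -0.99 ± 0.238 in TSA, with an adjusted p of 0.0647 (limma). Neither was called, although the 95% intervals, -1.38 to -0.30 and -1.53 to -0.44, lay below 0 before adjustment.

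The second Pou5f1 probe set spread far more. Its vehicle arrays were at 0.996, 0.425 and 1.58, its RA arrays at 0.621, 0.462 and 0.25 and its TSA arrays at 0.209, 0.413 and 0.716. Groups overlapped in every comparison, and the SD of the log2 values was 0.901 in vehicle, where the median over all probe sets was 0.413. Its changes of -0.99 in RA and -1.05 in TSA, near those of the first probe set, had an SE of 0.548 and were not called. This probe set has the suffix _r, which marks one for which the manufacturer relaxed its rules for picking oligonucleotides.

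Nanog, the homeodomain factor, was read by its first probe set at 1.08, 1.07 and 0.852 in vehicle. It was at 0.619, 0.632 and 0.652 in RA and at 0.759, 0.747 and 0.698 in TSA, so that the 3 groups did not overlap and ran from vehicle over TSA to RA. The log2 change was -0.61 ± 0.172 (SE) in RA and -0.41 ± 0.172 in TSA, with adjusted p of 0.156 and 0.23 (limma). The second probe set ran from 0.704 to 1.2 in vehicle, 0.423 to 0.796 in RA and 0.669 to 0.908 in TSA, with overlap and changes of -0.70 and -0.37. Its suffix _f marks oligonucleotides shared with similar sequences, so this probe set may also read relatives of Nanog. Neither probe set was called in any of the 3 comparisons.

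Sox2, the partner of Pou5f1 on DNA, was at 1.1, 1.12 and 0.785 on the vehicle arrays. Its RA arrays, at 0.622, 0.575 and 0.648, lay below all of these, and its TSA arrays, at 0.907, 0.962 and 0.971, lay among them. The change in RA was -0.64 ± 0.191 (SE), with an adjusted p of 0.179, and that in TSA was -0.06, with a 95% interval of -0.50 to 0.38 (limma). The direction in TSA was not stable: it was 0.14 after centring and 0.038 after quantile normalisation. RA against TSA gave -0.59 for Sox2, and an adjusted p of 0.159 (limma).

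Zfp42 (Rex1), a zinc finger protein used as a marker of the undifferentiated state, was at 1.03, 1.1 and 0.871 in vehicle. RA lowered it to 0.291, 0.359 and 0.196, a mean of 0.282 ± 0.0816 (SD, n = 3), with no overlap. In TSA it was at 0.968, 0.853 and 0.883, partly among the vehicle arrays. The log2 change was -1.69 ± 0.224 (SE) in RA, with an adjusted p of 0.0112 (limma). In TSA it was -0.14, with a 95% interval of -0.65 to 0.37, and it turned to 0.061 after centring. Without vehicle replicate 2 or without RA replicate 1 the RA call was lost, with adjusted p of 0.054 to 0.0549 (limma) and changes that remained between -1.85 and -1.49 in all 9 fits that each leave out 1 array.

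Tcl1, a cofactor that binds and activates the kinase Akt and is itself no DNA-binding factor, followed the same order. It was at 0.794, 1.17 and 1.04 in vehicle, at 0.292, 0.306 and 0.332 in RA and at 0.834, 0.683 and 0.937 in TSA. The RA arrays lay close together and well below the rest, with a mean of 0.31 ± 0.0201 (SD, n = 3). The change was -1.53 ± 0.209 (SE) in RA, with an adjusted p of 0.0122, and -0.27 in TSA, with an adjusted p of 0.527 (limma). Leaving out vehicle replicate 2, RA replicate 1 or RA replicate 2 ended the RA call, with adjusted p of 0.0568 to 0.0633 (limma).

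Utf1, a chromatin-bound cofactor and a known target of Pou5f1 and Sox2, fell with both compounds. Its vehicle arrays were at 0.8, 1.1 and 1.1, its RA arrays at 0.18, 0.255 and 0.375 and its TSA arrays at 0.428, 0.253 and 0.428. Both treated groups lay below the vehicle arrays and overlapped each other. The change was -1.74 ± 0.294 (SE) in RA and -1.34 ± 0.294 in TSA, with adjusted p of 0.0288 and 0.0466 (limma). The RA call held in 3 of 9 fits without 1 array: it was lost without vehicle replicate 2 or 3, RA replicate 1 or 2, or TSA replicate 1 or 3, at adjusted p of 0.0529 to 0.124 (limma). The TSA call held in 1 of 9, the fit without RA replicate 3, and the other 8 gave adjusted p of 0.0525 to 0.177 (limma). When limma's prior variance followed a trend in the mean, the adjusted p of Utf1 were 0.127 in RA and 0.139 in TSA (limma).

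Foxd3, a forkhead repressor needed by early embryonic stem cells and later by neural crest, fell furthest of the 8 genes in both treatments. It was at 1.21, 0.985 and 0.81 in vehicle and at 0.416, 0.163 and 0.13 in RA. On the TSA arrays it was at 0.061, 0.0265 and 0.0346, below every RA array. The mean in TSA, 0.0407 ± 0.018 (SD, n = 3), was 24.6 times below that of vehicle, and none of the 12422 probe sets had a lower mean ratio in TSA. On the log2 scale the change was -1.99 ± 0.362 (SE) in RA and -3.53 ± 0.362 in TSA, with adjusted p of 0.0392 and 0.00236 (limma). With a pseudocount of 0.01 or 0.1 in place of 0.05, the TSA change was -4.35 or -2.96. In TSA the change ranked 1 of 12422 from the lowest, also with both other pseudocounts, after centring and after quantile normalisation; the rank was 3 without vehicle replicate 2 and 2 without TSA replicate 2 or with array weights.

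The TSA call of Foxd3 held in all 9 fits without 1 array, with adjusted p up to 0.0173 (limma). It was lost with the same variance trend, with an adjusted p of 0.254, as was the RA call, at 0.656. That RA call held only without RA replicate 1, the highest of the 3, and the other 8 fits gave adjusted p of 0.0573 to 0.161 (limma). Like that of Sox2, the probe set of Foxd3 carries the suffix _r. Tested as genes in place of probe sets, over 8251 genes, the RA calls without 1 array held in 9 of 9 fits for Zfp42 and Tcl1, 6 for Utf1, 5 for Tbx3 and 4 for Foxd3.

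Tbx3, a T-box factor, was the member that went up. It was at 0.945, 0.965 and 1.09 in vehicle and at 3.06, 3.15 and 2.49 in RA, all 3 far above the rest. In TSA it was at 0.899, 0.547 and 1.03, among or below the vehicle arrays. The RA change was 1.49 ± 0.249 (SE), with an adjusted p of 0.0286, and the TSA change -0.30, with an adjusted p of 0.553 (limma). The RA call held in 3 of 9 fits without 1 array. It was lost without vehicle replicate 1 or 2, any of the RA arrays, or TSA replicate 1, with adjusted p of 0.0582 to 0.128 (limma) and changes of 1.42 to 1.59 over all 9.

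**Figure D2:**
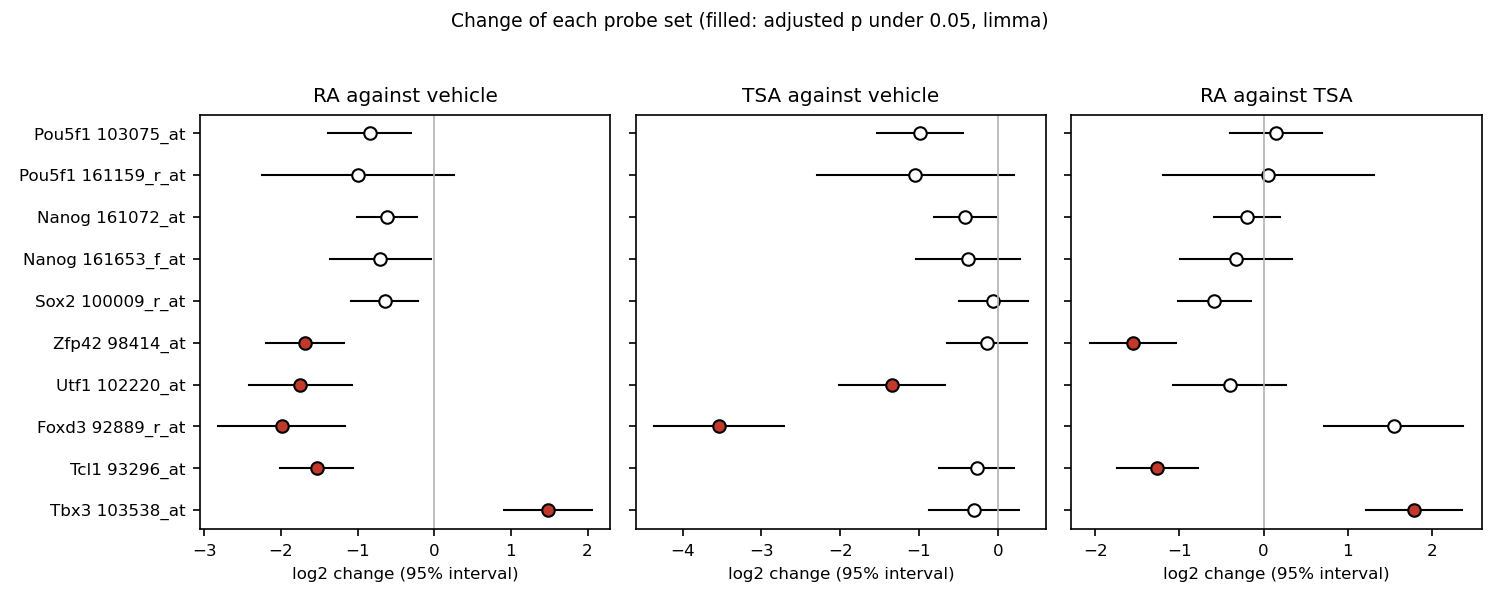
Log2 change of each probe set with its 95% interval in RA against vehicle, TSA against vehicle and RA against TSA; filled points have an adjusted p under 0.05 (limma) and the horizontal scales differ between panels. Filled are 5 points in RA, 2 in TSA and 3 in the direct comparison, and the widest intervals are those of the second Pou5f1 probe set.

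By count, 4 of the 10 probe sets were called lower in RA, where 0.427% of all 12422 were, and 1 was called higher, where 0.934% were. In 7 of 10 every RA array lay below every vehicle array, against 11% of all probe sets, the 3 exceptions being Tbx3 and the second probe sets of Pou5f1 and Nanog. The median log2 change of the 10 was -0.92, against -0.12 over all probe sets, and 9 of 10 were below 0, against 62.3%; this count was 9 under centring and quantile normalisation too. In TSA, 2 were called lower, against 1.27% of all probe sets, and none higher, against 2.21%, with 4 at an unadjusted p under 0.05 (limma), against 19.6% of all probe sets. In 4 of 10, the first probe sets of Pou5f1 and Nanog with Utf1 and Foxd3, every TSA array lay below every vehicle array, against 17.1%. The median was -0.39, against -0.17 over all. All 10 were below 0 in TSA, against 63.9% of all probe sets, but 8 after centring and 9 after quantile normalisation. In RA 9 of the 10 had an unadjusted p under 0.05 in the main fit (limma), against 12.7% of all probe sets. Fitted on the 6 arrays of RA and vehicle alone, none of the 10 was called in RA, with 8 at an unadjusted p under 0.05 (limma). Without vehicle replicate 2 none was either, with 9. The shares of all probe sets at that p in these fits with fewer arrays were not computed. The comparisons with vehicle share the vehicle arrays, so the values of RA and TSA are not independent of each other.

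**Figure D3:**
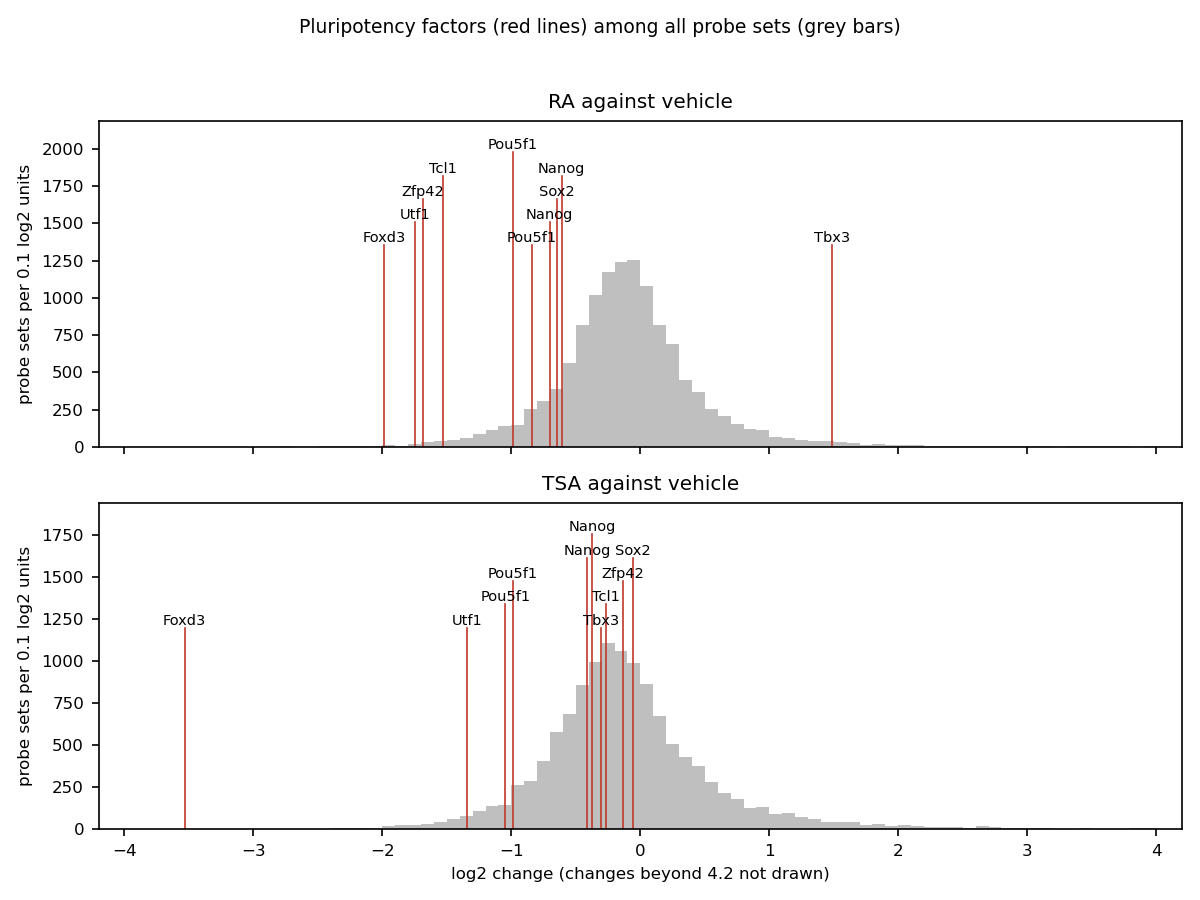
Distribution of the log2 change over all 12422 probe sets (grey, probe sets per 0.1 log2 units) with the 10 probe sets of the pluripotency factors as red lines, for RA and TSA against vehicle. In RA 9 lines lie left of the centre and Tbx3 at 1.49. In TSA Foxd3, at -3.53, lies apart from the other red lines, with a few grey probe sets beside it. Most other lines fall inside the bulk in TSA.

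RA was also compared with TSA directly, in which the vehicle level cancels and the vehicle arrays add only to the estimate of spread. Zfp42 was lower in RA by a log2 change of -1.55 ± 0.224 (SE), with an adjusted p of 0.00954, and Tcl1 by -1.26 ± 0.209, with an adjusted p of 0.0153 (limma). Tbx3 was higher in RA by 1.79 ± 0.249, with an adjusted p of 0.00783 (limma). Among all probe sets 2.21% were called lower in RA than in TSA and 1.7% higher. Zfp42 and Tbx3 were called in all 9 fits without 1 array, and Tcl1 in 5. Without RA replicate 1 or 2 or TSA replicate 1 or 3, Tcl1 had adjusted p of 0.0605 to 0.0643 (limma). Its call was also lost after quantile normalisation. Foxd3 was higher in RA by 1.55 ± 0.362 with no overlap. Its adjusted p was 0.0558 over probe sets and 0.043 when genes in place of probe sets were tested (limma). Over probe sets, 3 of 18 alternative fits called Foxd3. It was called in 0 of the 9 fits without 1 array, with adjusted p of 0.055 to 0.199, and had 0.696 with the variance trend (limma). Utf1 differed by -0.40, with a 95% interval of -1.07 to 0.27, and Pou5f1 by 0.15 (-0.40 to 0.69) and 0.056 (-1.20 to 1.31) for its 2 probe sets. These intervals do not show that the compounds acted alike on them.

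Array controls moved with the groups in part. The median signal of the spiked hybridisation controls lay between 0.895 and 1.05 in vehicle, between 0.412 and 1.1 in RA and between 0.557 and 0.717 in TSA, and the part of this in the changes was not tested. The ratio of 3′ to 5′ signal for Gapdh, a measure of RNA integrity, lay between -0.117 and 0.093 on the log2 scale, relative to vehicle, over the 9 arrays. Without vehicle replicate 3 and RA replicate 3, the arrays of highest 18S signal, Zfp42 changed by -1.58 in RA, with an adjusted p of 0.0333 (limma). Utf1 (-1.90), Foxd3 (-1.85), Tcl1 (-1.54) and Tbx3 (1.65) were no longer called and had adjusted p of 0.0738 to 0.114 (limma). Foxd3 in TSA was at -3.67 and was still called, with an adjusted p of 0.0106 (limma).

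The likeness of other genes was taken as the Pearson correlation of log2 values over the 9 arrays, 2 genes for each member probe set, as a description only, since the points share the treatments and the vehicle scale. Closest to Tbx3 were Zfp362 (r = 0.992), which changed by 1.02 in RA, and Srgn (0.984), a proteoglycan core protein, which changed by 3.56. Closest to Zfp42 was the corepressor Ctbp2 (0.985), at -1.66 in RA and 0.032 in TSA, and then Mettl8 (0.974). Nanog, by its first probe set, was followed by Myb (0.983), a proto-oncogene at -3.25 in RA and -1.90 in TSA, and En2 (0.977). Closest to the first Pou5f1 probe set was Nop56 (0.988), a nucleolar protein of ribosome production, at -1.09 and -1.27, followed by Cnbp (0.97). Foxd3 was followed by Stk16 (0.982) and Xpot (0.978), Sox2 by Bcap31 (0.967) and Skp1 (0.965), Utf1 by Ly9 (0.975) and Tcp1 (0.963), and Tcl1 by Ntn1 (0.955) and Mettl18 (0.953). The second probe sets were closest to Ddx27 (0.946) and Grpr (0.924) for Pou5f1 and to Ddx6 (0.96) and Tbc1d15 (0.919) for Nanog.

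Other factors of the undifferentiated state were read per gene, with the log2 values of its probe sets averaged and 8251 genes tested. Of 23 measured, 2 were called lower in RA and none higher, against 0.63% and 1.19% of all genes: Myc (-2.39 ± 0.232, SE) and the nuclear receptor Nr5a2 (-1.03 ± 0.192). Myc ran from 0.116 to 0.206 on the RA arrays and was called in all 9 fits without 1 array, Nr5a2 in 1. The median of the 23 was -0.51, against -0.12 over all genes, and 22 were below 0, against 62.4% of all genes. In TSA, 2 were called lower and none higher, against 1.78% and 2.71% of all genes: the chromatin protein Hmga2 (-1.67) and the cell cycle factor Mybl2 (-0.95), called in 0 and 1 of 9 fits without 1 array. The median of the 23 in TSA was -0.32, against -0.15 over all genes, and 15 were below 0, against 63.2% of all genes. Esrrb, Klf4 and Klf5, naive-state factors, were not called. Their values were -0.72, -0.94 and -0.69 in RA and -0.93, -1.77 and -0.32 in TSA. Klf2 and Nr5a2 were among those above 0 in TSA, at 0.54 and 0.34, and were not called there.

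A list of signals, receptors and markers, drawn up broadly for that state and including the metallothionein Mt1, had 26 measured genes. Of these, Tdgf1 (Cripto, a Nodal coreceptor, at -2.37) was called lower in RA. Alpl (alkaline phosphatase, 1.65) and the Nodal antagonist Lefty1 (2.05) were called higher, against 0.63% of all genes lower and 1.19% higher. In TSA, Lefty1 (-1.71), Tdgf1 (-1.53), Gdf3 (-1.28) and the LIF receptor Lifr (-1.11) were called lower, and the germline gene Tex19.1 (3.06) and the metallothionein Mt1 (1.76) higher, against 1.78% of all genes lower and 2.71% higher. Without 1 array the TSA calls of Tdgf1 and Mt1 held in 3 and 1 of 9 fits, those of Gdf3 and Lifr in 5 each, and those of Lefty1 in 6 in either treatment. The medians were -0.15 in RA and -0.0023 in TSA, against -0.12 and -0.15 over all genes. Fgf4, a target of Pou5f1 and Sox2, was at -0.83 and -0.84 and was not called.

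Over all 8251 genes, 13.9% in RA and 21.6% in TSA had an unadjusted p under 0.05 (limma), the shares beside which the counts of the remaining lists stand. The list named repressors of Pou5f1 had 10 measured genes, nuclear receptors and Cdx2, and it included the receptors Rara, Rarg and Rxra. Whether each of these genes represses Pou5f1 was not tested. None of the 10 was called in either treatment, with 2 in RA and 0 in TSA at an unadjusted p under 0.05 (limma). Among them Nr2f1 (COUP-TFI) was at 2.53 and Nr6a1 (GCNF) at 0.21 in RA. None of 19 close paralogs of the members (other POU, Sox, Foxd and T-box genes and Yy1) was called, with 0 in RA and 3 in TSA at an unadjusted p under 0.05 (limma), and their medians were -0.047 and -0.26. None of 4 relatives and partners of Tcl1 was called, with 0 and 1 at an unadjusted p under 0.05 (limma); its paralog Tcl1b1 was at -0.22 in RA and Akt1 at -0.74 in TSA.

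**Figure D4:**
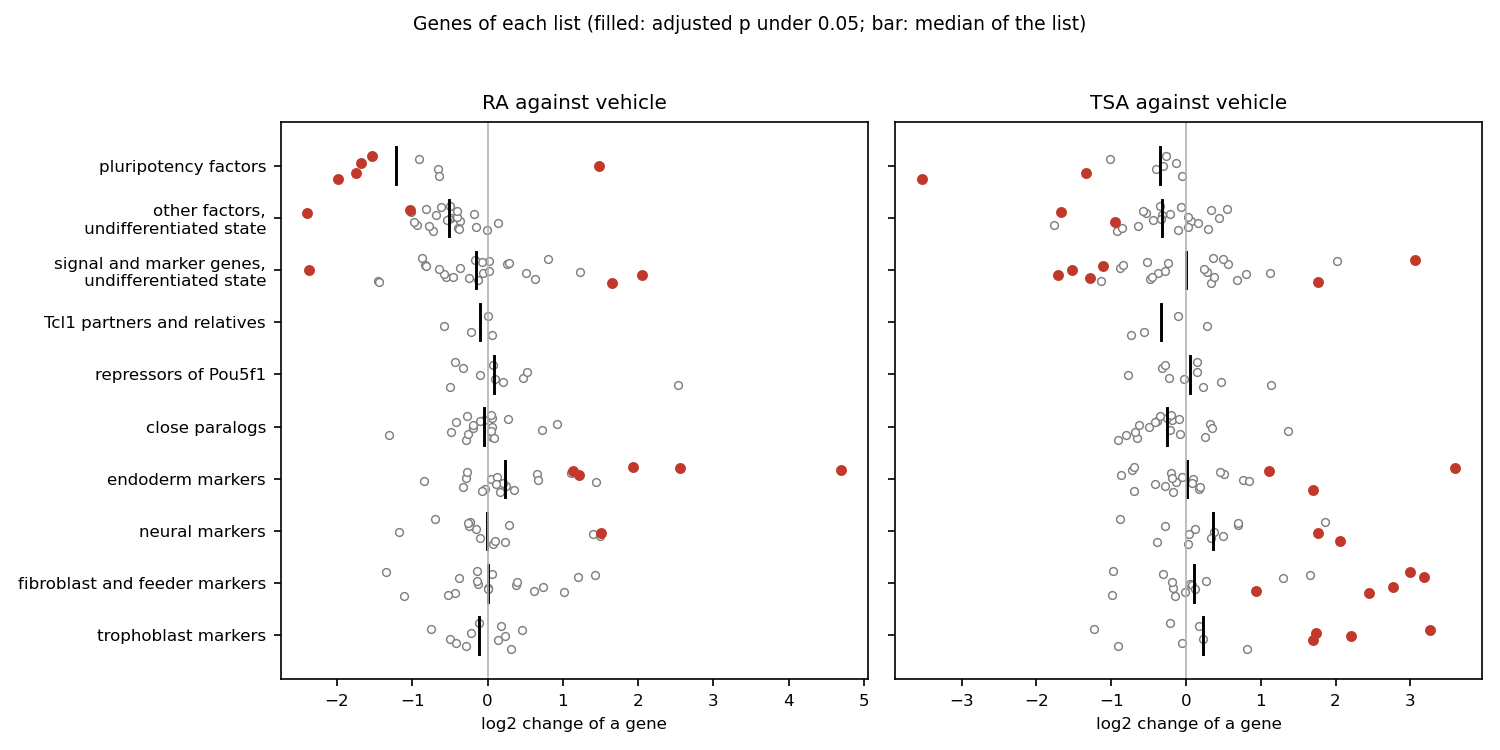
Log2 change of each gene of the lists in RA and TSA against vehicle; filled points have an adjusted p under 0.05 over 8251 genes (limma) and bars are list medians. The pluripotency factors have a median of -1.22 in RA and -0.35 in TSA, and filled points to the right are most frequent among endoderm markers in RA and fibroblast and trophoblast markers in TSA.

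Some markers of other cell types were called as well; among all genes 1.19% were called higher in RA and 2.71% in TSA. Of 22 endoderm markers, Foxa1 (4.70), Plat (2.56), Gata6 (1.93), Sox7 (1.21) and Lama1 (1.13) were called higher in RA and Plat (3.60), Krt19 (1.70) and Lama1 (1.11) in TSA. In RA 6 of the 22 were below 0, against 62.4% of all genes, with a median of 0.23, and the endoderm markers not named here were not called. In TSA 11 of the 22 were below 0, against 63.2% of all genes, with a median of 0.012. In TSA Sox7 was at -0.87, Foxa1 at -0.73 and Gata6 at -0.69, none of them called. The mean log2 value of that list was 0.591 to 0.663 on the RA arrays and 0.167 to 0.222 on the TSA arrays, against -0.288 to 0.239 on the vehicle arrays. Of 18 fibroblast markers, Cnn1 (3.18), Thy1 (3.00), Ccn2 (2.77), Col1a1 (2.45) and Col5a1 (0.94) were called higher in TSA and none in RA, with 4 at an unadjusted p under 0.05 in RA (limma). In TSA 7 of the 18 were below 0 and the median was 0.10. Their mean was 0.497 to 0.715 in TSA, -0.182 to 0.0786 in RA and -0.452 to 0.441 in vehicle. Of 11 trophoblast markers, Tfap2c (3.26), Esx1 (2.21), Phlda2 (1.74) and Plac8 (1.70) were called higher in TSA. None was called in RA, where 0 had an unadjusted p under 0.05 (limma). In TSA 4 of the 11 were below 0 and the median was 0.22. The mean of this list was 0.617 to 0.677 in TSA, -0.39 to -0.0159 in RA and -0.198 to 0.21 in vehicle. Of 14 neural markers, Syt1 was called higher in both treatments (1.51 and 1.77) and Mapt in TSA (2.06). In TSA 3 of the 14 were below 0 with a median of 0.36, and in RA 7 were, with a median of -0.014. The mean of this list was 0.344 to 0.614 in TSA, 0.143 to 0.177 in RA and -0.0717 to 0.0886 in vehicle. Calls in 4 or fewer of 9 fits without 1 array were those of Plat (3), Sox7 (2) and Lama1 (1) in RA and Lama1 (3) in TSA. The part of such cells in the values of the pluripotency factors was not tested.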

How the data were processed

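Total RNA, treated with DNase and column-purified, was hybridised to Affymetrix arrays at a core facility, per the labels; GeneSpring is named for the vehicle arrays, and how the ratios were made is not given in the sources used. The authors deposited 1 ratio per probe set and array. In every probe set the vehicle arrays average 1, so the ratios are relative to the vehicle mean.

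Of 12488 probe sets, 66 controls were left out. Symbols came from the platform annotation (10833 with 1, 396 with several, 1193 with none) and were updated by Entrez ID through RefSeq GRCm38.p6. Values were analysed as log2(ratio + 0.05) with limma 3.58.1 in R 4.3.3, in 1 fit over 9 arrays (6 residual degrees of freedom), without a filter or a variance trend, Benjamini-Hochberg adjusted over all probe sets. For the other lists, probe sets of a gene were averaged, over 8251 genes. Called means an adjusted p under 0.05. Precision is limited by the number of arrays. The fit was tested on simulated data.

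Members, lists, motifs and alternatives were chosen with earlier results of these data known. Named genes are all member probe sets, every called gene of each other list, and the 2 closest correlates per member probe set. Genes that were not called but are named beside them (Esrrb, Klf2, Klf4, Klf5, Fgf4, Nr2f1, Nr6a1, Tcl1b1 and Akt1) were chosen after their values were seen. Alternatives were other pseudocounts, scaling, a filter, a trend, array weights, a block, fewer arrays and gene values.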

Additional observations from a re-analysis of the deposited data

How the results depend on the processing

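Of 543 member changes recomputed over alternatives, 459 kept direction and side of the threshold, 61 lost and 12 gained a call and 11 changed sign. Of the 10 probe sets, 5 were called in RA, 2 in TSA and 3 in RA against TSA. Leaving out 1 array gave 0 to 4, 1 to 2 and 2 to 3; the 0 (without vehicle replicate 2) had 9 at an unadjusted p under 0.05 in limma. In RA the count was 4 with a pseudocount of 0.01, after centring and after quantile normalisation, each time with Foxd3 lost. It was 1 with the filter on the lowest 30% by mean ratio and 3 with the variance trend. From the 6 arrays compared it was 0 (8 at an unadjusted p under 0.05, limma). It was 9 with array weights and 1 without both arrays of highest 18S signal. In TSA it was 1 with a pseudocount of 0.01, after centring, after quantile normalisation, from 6 arrays, with the replicate block and without both 18S arrays, 0 with the filter (0 unadjusted) and 0 with the trend (3 unadjusted; Foxd3 had an adjusted p of 0.254, limma), and 6 with array weights. In RA against TSA it was 1 with the filter, 2 after quantile normalisation (Tcl1 lost), 4 with a pseudocount of 0.01 and 5 with array weights. The filter removes probe sets that fell and left 1 of the 10, Tbx3. The array weights did not converge and gave vehicle replicate 2 a weight of 21.4, where the others had 0.247 to 1.68, so their counts (2196 calls over all probe sets in RA and 4494 in TSA) have little standing. Over all probe sets, the RA calls were 116 higher and 53 lower, 148 and 37 after centring and 74 and 13 after quantile normalisation; in TSA they were 274 and 158, 379 and 82, and 84 and 24. In RA, 61 were called from the 6 arrays compared and 98 without both 18S arrays, and leaving out 1 array gave 54 to 209 in RA, 107 to 494 in TSA and 167 to 624 in RA against TSA.

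Sign changes were confined to changes that were not called: Sox2 in TSA (0.14 after centring, 0.038 after quantile normalisation, and -0.22 to 0.027 without 1 array, above 0 without vehicle replicates 1 and 2), Zfp42 in TSA (0.061 after centring), and the second Pou5f1 probe set in RA (0.029 with array weights). In RA against TSA, the second Pou5f1 probe set gave -0.00697 after quantile normalisation and -0.34 to 0.44 without 1 array, below 0 when RA replicate 1, RA replicate 2 or TSA replicate 1 was absent. The first ran from -0.059 (TSA replicate 2 absent) to 0.28. Same-numbered arrays of different groups had deviations correlated at -0.032 to 0.289, above 0.1 in some pairs and not in others. The labels do not say what a number shares, so the numbers were not taken as pairs, although 6 of 9 arrays correlated best with their own number, a hint from the data. With the number as a replicate block, 4, 1 and 4 of the 10 probe sets were called in RA, TSA and RA against TSA; Tbx3 in RA (adjusted p of 0.0633, limma) and Utf1 in TSA (0.0532) were lost, and Foxd3 in RA against TSA (0.0272) was gained. Counts of called genes in the other lists moved by over 1.5 times in 108 of 513 cases. The counts of motifs were the same in the 250 bases before the start alone.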
